A study of Mus musculus with 8 samples.

Results

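Long noncoding RNA genes were taken as genes with the GENCODE mouse M21 type lincRNA, antisense, processed_transcript, bidirectional_promoter_lncRNA or sense_intronic whose TPM, summed over transcripts, was 5 or more in 2 or more libraries. TPM is an abundance corrected for transcript length with the same sum in every library. The rule gave 21 genes, of 223 genes of these types in the deposited files and of 30284 genes with a value in all. They were 7 lincRNA, 6 antisense, 6 processed_transcript, 1 bidirectional_promoter_lncRNA and 1 sense_intronic gene. Only 7 of the 21 reached 5 TPM in all 8 libraries, and 16 had a mean of 5 TPM or more. The rule asks for a level and not for a difference, but Gm9869 met it through IFNb alone. The saline libraries alone carried 4930481A15Rik over it. C920021L13Rik, Gm20939 and Gm42936 reached 5 TPM in both IFNb libraries and otherwise in only 1 Saline library, so they needed IFNb to meet it. Differences of these genes and of Gm9869 from IFNb, and of 4930481A15Rik from Saline, were favoured by the rule. Rises of Gm9776 and 6530409C15Rik from Saline were favoured as well, since only stimulated libraries brought them to 5 TPM. All these differences are given without a test, although the counts of called members include them. No Saline library of Gm9776 or 6530409C15Rik reached 5 TPM, nor did any LPS or LPS+IFNb library of C920021L13Rik, Gm20939 or Gm42936, or any IFNb or LPS+IFNb library of 1810032O08Rik. Just inside the threshold, the second-highest library of 4632415L05Rik was at 5.57 TPM and that of C920021L13Rik at 5.77 TPM. Just outside it were Gm44641 at 4.86 TPM and 0610009L18Rik at 4.70 TPM.

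The 8 RNA sequencing libraries came from macrophages of 7-week-old male C57BL6 mice stimulated in the peritoneum, 2 per group. The LPS group had lipopolysaccharide, the bacterial ligand of TLR4, for 4 h. The IFNb group had interferon beta, a type I interferon, for 4 h. The LPS+IFNb group had IFNb for 4 h and then LPS for 4 h, and the Saline group had saline for 4 h. LPS+IFNb cells were thus taken later after their first treatment than the LPS, IFNb and Saline cells. No group had IFNb followed by saline, so time after IFNb and the addition of LPS cannot be told apart. Comparisons of LPS+IFNb with LPS or Saline likewise differ in time. Whether both libraries of a group came from different animals is not in the labels. P-values therefore measure the spread between libraries, which may be technical.

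A long noncoding RNA is a transcript that is often spliced and polyadenylated like a messenger RNA but is not annotated as encoding a protein. Some act in the nucleus on nearby genes, some are by-products of a promoter that fires in both directions, and some serve as hosts whose introns release small nucleolar RNAs (snoRNAs), the guides for chemical modification of ribosomal RNA. In macrophages TLR4 and the type I interferon receptor, acting through NF-kB, IRF and STAT transcription factors, switch on many such transcripts beside the coding response genes.

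The type was checked against other annotation and against the sequence of the listed transcripts. RefSeq types 11 of the 21 as lncRNA, 4 as protein coding and 2 as pseudogenes, and 4 have no RefSeq entry. The 4 coding genes were Ifi30, a lysosomal thiol reductase that unfolds antigens, Cct6a, a subunit of the cytosolic chaperonin, Zswim6, a zinc finger SWIM protein, and Gm20939. The longest reading frame from an ATG was 248 codons in the listed transcript of Ifi30, 532 in that of Cct6a, 1207 in that of Zswim6 and 492 in that of Gm20939. It was 78 codons in AW112010 and 20 in Gm9869. In the main listed transcripts of other members it reached 260 codons in Prr33, 202 in Gm10602, 150 in Gm43190 and 142 in 4930431F12Rik. Long frames were thus not confined to the 4 coding genes. Pseudoalignment, which assigns reads by short matching words, divides reads between transcripts that share words, so words of 31 bases shared with other listed genes were counted. All such words of Gm11175 were also in Jund, an AP-1 transcription factor gene, and all those of 1700026F02Rik were in Zfp709. Gm42936 shared 95.8%, mostly with D5Ertd579e, and Gm10076 shared 84.2%, mostly with the ribosomal protein gene Rpl41. The levels of these 4 are uncertain, since their reads can be divided between them and the other gene. Under 5% was shared by 8 members, of which AW112010, Gm9869, Prr33 and Ifi30 shared none. Strand use in counting is not stated in the sources used here, so reads of a member and of a gene on the opposite strand at the same bases cannot be told apart. Of the 21, 12 overlapped the span of a coding gene, 11 of them on the opposite strand.

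**Figure D1:**
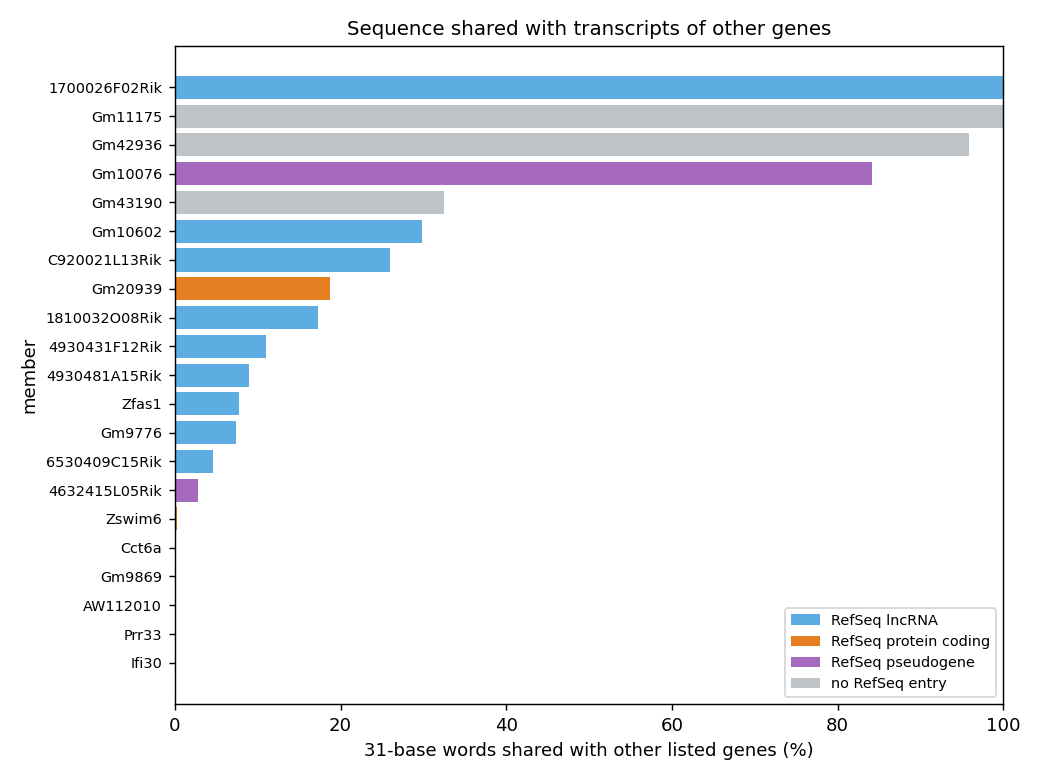
Percent of the 31-base words of each member's listed transcripts that also occur in another listed gene (x axis), for the 21 members (y axis), coloured by RefSeq type. The 4 highest, 1700026F02Rik, Gm11175, Gm42936 and Gm10076, lie between 84.2% and 100%.

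Promoter sequences are shown for 2 members that rose in all 3 treatments against saline, AW112010 and 4930431F12Rik, with capitals marking the bases from the RefSeq start onwards. They are also shown for the 2 members whose start faces that of a coding gene most closely among those with a RefSeq window. For Zfas1 the capitals again mark the bases from its start onwards, which also lie within the opposite-strand gene Znfx1, whose start is 81 bp further into Zfas1. For Gm9776 the capitals mark the bases between its start and that of Ap3b1, 37 bp upstream on the opposite strand. The windows run from 250 bases before to 50 bases after the start, on the strand of the gene, from RefSeq on GRCm38.p6. For AW112010 the RefSeq start, 11050566, lies inside the GENCODE gene, whose start on the minus strand is 11055808.
AW112010 (chr19:11050517-11050816, minus strand): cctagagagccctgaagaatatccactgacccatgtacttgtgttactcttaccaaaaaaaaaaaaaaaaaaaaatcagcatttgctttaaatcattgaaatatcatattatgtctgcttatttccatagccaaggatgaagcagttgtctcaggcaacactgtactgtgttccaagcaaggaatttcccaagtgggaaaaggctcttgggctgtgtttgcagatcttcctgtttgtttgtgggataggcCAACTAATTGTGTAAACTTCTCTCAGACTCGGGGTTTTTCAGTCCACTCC
4930431F12Rik (chr5:44965951-44966250, plus strand): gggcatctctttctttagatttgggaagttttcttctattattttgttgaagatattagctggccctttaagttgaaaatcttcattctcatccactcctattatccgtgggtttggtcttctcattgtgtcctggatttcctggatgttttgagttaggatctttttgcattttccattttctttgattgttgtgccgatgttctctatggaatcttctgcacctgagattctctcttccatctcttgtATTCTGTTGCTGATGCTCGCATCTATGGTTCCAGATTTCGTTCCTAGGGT
Zfas1 (chr2:167062684-167062983, plus strand): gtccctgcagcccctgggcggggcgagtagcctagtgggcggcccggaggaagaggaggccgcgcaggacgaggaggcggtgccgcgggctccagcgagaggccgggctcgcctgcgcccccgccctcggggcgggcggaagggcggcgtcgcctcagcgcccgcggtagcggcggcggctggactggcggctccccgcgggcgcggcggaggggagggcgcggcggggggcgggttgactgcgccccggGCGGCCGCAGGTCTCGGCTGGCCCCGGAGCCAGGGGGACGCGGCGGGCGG
Gm9776 (chr13:94358874-94359173, minus strand): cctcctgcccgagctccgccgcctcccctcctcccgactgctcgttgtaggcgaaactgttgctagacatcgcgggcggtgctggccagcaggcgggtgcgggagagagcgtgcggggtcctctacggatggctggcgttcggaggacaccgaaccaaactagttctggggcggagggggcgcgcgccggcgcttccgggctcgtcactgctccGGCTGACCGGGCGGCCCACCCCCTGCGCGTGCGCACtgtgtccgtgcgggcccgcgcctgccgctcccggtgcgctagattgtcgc

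The windows differed in composition. AW112010 had 40% G+C and 1 CpG, and 4930431F12Rik had 39.3% G+C and 4 CpG. Zfas1 had 83% G+C and 47 CpG, and Gm9776 had 72.3% G+C and 39 CpG. All 32851 RefSeq promoters in the table had a median of 52.7% G+C and 7 CpG. Windows were found for 14 of the 21 members. The interferon-stimulated response element core, read as GAAA, any 2 bases, then GAAA, was in 0 of 14 and in 3.44% of all promoters. A single form of the NF-kB motif, read as GGG, any 2 bases, then TTTCC, was in 0 of 14 and in 1.63% of all promoters. Other forms of an NF-kB site were not searched. The STAT motif, read as TTC, any 3 bases, then GAA, was in 1 of 14, 1700026F02Rik, and in 8.30% of all promoters. The 1700026F02Rik window, chr8:71026706-71027005, lies inside the GENCODE gene, whose start on the minus strand is 71085758. A RefSeq window thus need not lie at the start of the listed transcript. Both strands were searched, and a missing match says only that these letters are not in the window.

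The 21 genes took a small but changing part of the RNA. Their summed TPM was 0.120% and 0.118% of the library in LPS, 0.219% and 0.229% in IFNb, 0.281% and 0.277% in LPS+IFNb, and 0.0865% and 0.0874% in Saline. One gene, AW112010, made up 32.2% and 31.3% of that sum in LPS, 66.3% and 68.5% in IFNb, 73.7% and 72.6% in LPS+IFNb, and 4.24% and 3.13% in Saline. In Saline the coding gene Ifi30 held most of it, 61.4% and 56.1%. In bulk RNA, fewer cells of a type and less RNA per cell cannot be told apart.

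**Figure D2:**
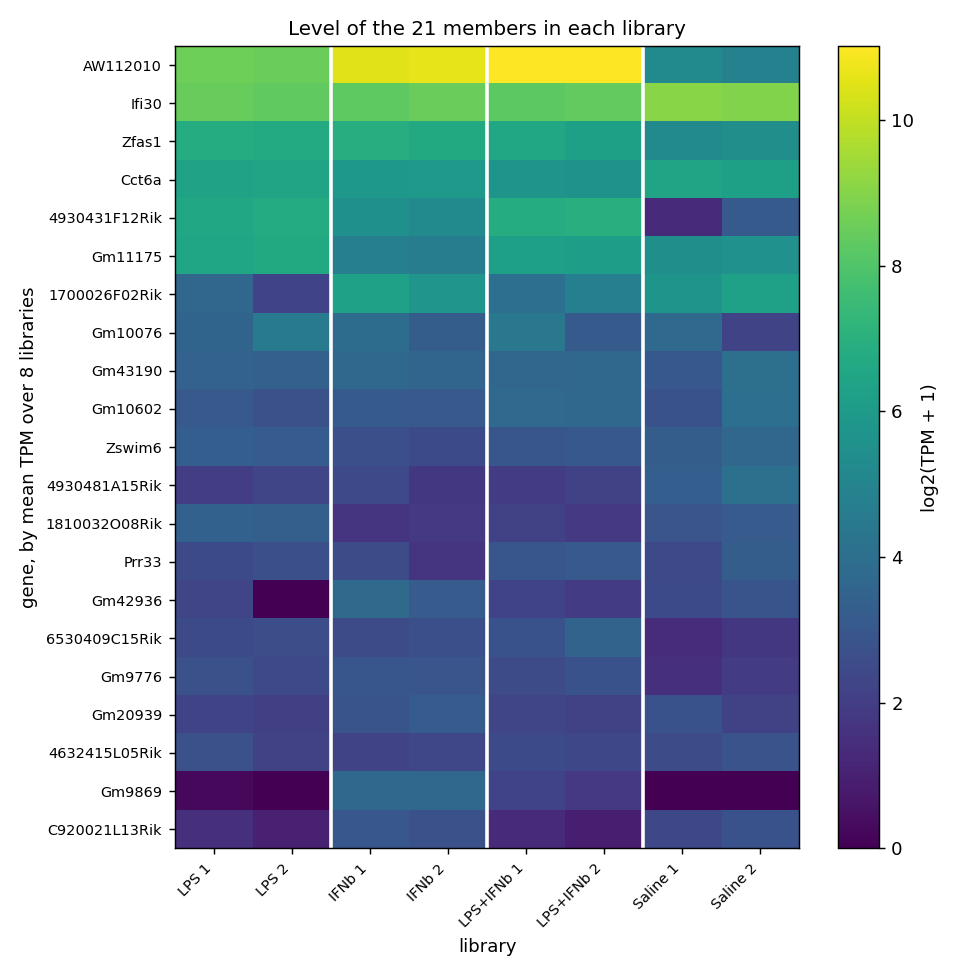
Level of the 21 members as log2(TPM + 1) (colour) in each of the 8 libraries (columns, by group LPS, IFNb, LPS+IFNb and Saline), ordered by mean TPM (rows). AW112010 is the brightest row in the IFNb and LPS+IFNb libraries, and Gm9869 is dark in the LPS and Saline libraries.

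Within groups the libraries correlated at 0.971 to 0.983 over all tested genes, and between groups at 0.823 to 0.951. Transcripts above 0 numbered 53928 in Saline replicate 2 and 46998 to 50489 elsewhere, and 15 of the 21 members were higher in it than in Saline replicate 1, as were 60.2% of all tested genes. Summed markers of macrophages ran from 16230 to 16974 TPM in LPS, 15410 to 15661 in IFNb, 13635 to 13810 in LPS+IFNb and 19059 to 21760 in Saline, and all 6 were listed. Summed markers of monocytes and small peritoneal macrophages ran from 138 to 152 TPM in LPS, 559 to 681 in IFNb, 480 to 534 in LPS+IFNb and 68.9 to 76.5 in Saline. They were highest in IFNb and next in LPS+IFNb, as was Gm9869, while AW112010 was highest in LPS+IFNb. The means of C920021L13Rik, Gm20939 and Gm42936 were highest in IFNb but lower in LPS+IFNb than in Saline. No marker of any list was at 0 in all libraries, and B cell markers summed to 85.0 to 160 TPM and T and NK cell markers to 5.62 to 26.3 TPM over the 8 libraries. The part of these cells in the results was not tested.

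Changes are log2 differences of TPM + 1 with their standard error, from limma-trend fitted to 13009 genes, with p adjusted over all of them by the Benjamini-Hochberg method. Changes with an adjusted p under 0.05 were called. Against Saline, LPS raised 6 of the 21 and lowered 4, beside 12.8% and 41.3% of all tested genes and 15.3% and 45.7% of the 9769 genes with 5 TPM in 2 libraries. IFNb raised 6 and lowered 6, beside 13% and 38.6% of all tested genes and 15.3% and 44.4% at 5 TPM. LPS+IFNb raised 7 and lowered 7, beside 15.2% and 54.1% of all tested genes and 17.7% and 59.6% at 5 TPM. The members called higher were 28.6%, 28.6% and 33.3% of the 21, and those called lower were 19%, 28.6% and 33.3%. Members' median log2 change was -0.14 in LPS, 0.10 in IFNb and 0.14 in LPS+IFNb, beside -0.38, -0.37 and -0.62 over all tested genes. These 3 comparisons share the Saline libraries. Median-ratio scaling moved the median of all genes by 0.39, 0.34 and 0.61, so modest falls depend on the scaling. With that scaling 8 were higher and 3 lower in LPS, 7 and 4 in IFNb, and 9 and 2 in LPS+IFNb. All these counts include 4930481A15Rik as lower in each treatment and Gm9869 as higher in IFNb, which the rule favoured. They also include Gm9776 and 6530409C15Rik as higher in each treatment. The rule favoured this too, since no Saline library of either reached 5 TPM. C920021L13Rik is included as lower in LPS and LPS+IFNb, where it never reached 5 TPM. Without the 4 RefSeq coding genes and the 4 with over 50% of words shared, the counts were 5 higher and 2 lower in LPS, 6 and 2 in IFNb, and 6 and 3 in LPS+IFNb.

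**Figure D3:**
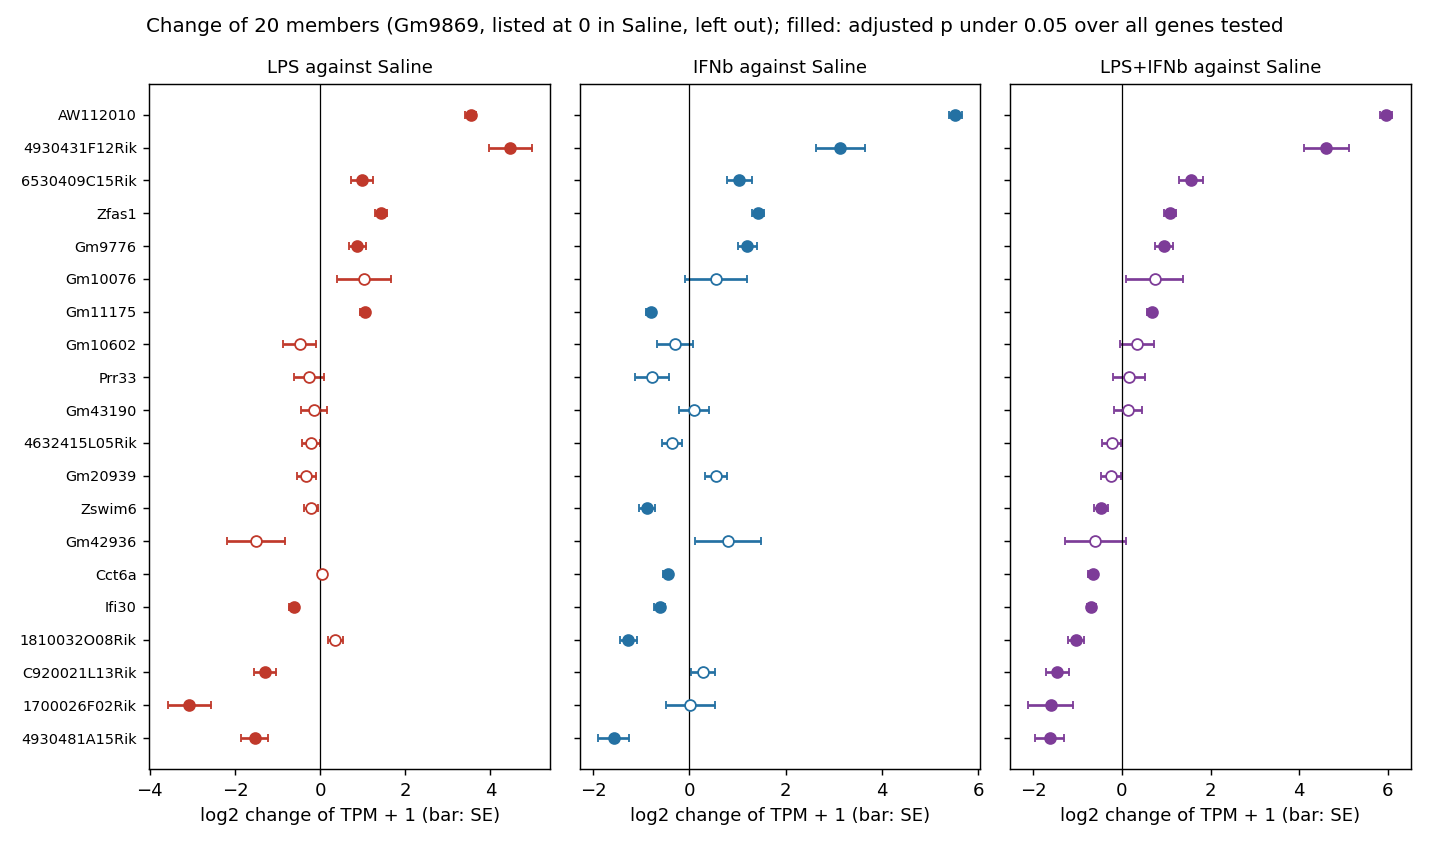
Log2 change of TPM + 1 against Saline (x axis, bar: standard error) for 20 members (y axis) in LPS, IFNb and LPS+IFNb, filled where the adjusted p was under 0.05. Gm9869 is left out because both Saline libraries list it at 0. AW112010 and 4930431F12Rik lie farthest to the right in each panel, at 3.53 and 4.47 in LPS, 5.53 and 3.14 in IFNb, and 5.96 and 4.61 in LPS+IFNb.

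AW112010 had the highest level of the 21 in all 6 stimulated libraries. It is an interferon-inducible transcript that has been reported in mouse macrophages to be translated into a small protein from a start other than ATG. It lies at chr19:11047612-11055808 on the minus strand, in no coding gene, 25294 bp between GENCODE starts from the nearest, Ms4a8a. AW112010 was at 388 and 369 TPM in LPS, 1451 and 1565 TPM in IFNb, 2071 and 2012 TPM in LPS+IFNb, and 36.7 and 27.4 TPM in Saline. The 4 groups did not overlap, and Saline was lowest and LPS+IFNb highest. The change against Saline was 3.53 ± 0.13 in LPS (limma adjusted p = 6.31e-06), 5.53 ± 0.13 in IFNb (adjusted p = 7.76e-07) and 5.96 ± 0.13 in LPS+IFNb (adjusted p = 5.81e-07). It ranked 64 and 66 among all genes in the LPS+IFNb libraries, against 3404 and 4463 in Saline. LPS+IFNb exceeded LPS by 2.43 ± 0.13 (limma adjusted p = 0.000123). LPS+IFNb exceeded IFNb by 0.44 ± 0.13 (limma adjusted p = 0.0419), which did not pass without LPS replicate 1, LPS replicate 2, either IFNb or either LPS+IFNb library (adjusted p = 0.0649 to 0.168) or without the filter (0.0943). The changes of LPS and IFNb alone sum to 9.06 and the change of LPS+IFNb was 5.96, an interaction of -3.10 ± 0.19 (limma adjusted p = 0.000215). Ms4a8a was at 20.02 and 23.5 TPM in LPS, 80.4 and 59.3 TPM in IFNb, 63.1 and 44.5 TPM in LPS+IFNb, and 21.5 and 21.3 TPM in Saline.

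4930431F12Rik, a lincRNA at chr5:44966200-44978805, was highest where LPS was given. It was at 97.4 and 110 TPM in LPS, 44.9 and 36.7 TPM in IFNb, 111 and 118 TPM in LPS+IFNb, and 1.57 and 7.70 TPM in Saline. The LPS and LPS+IFNb libraries lay above the IFNb libraries, and all of these above Saline, whose 2 libraries were over 2-fold apart. The change against Saline was 4.47 ± 0.50 in LPS (limma adjusted p = 0.000632), 3.14 ± 0.50 in IFNb (adjusted p = 0.00285) and 4.61 ± 0.50 in LPS+IFNb (adjusted p = 0.000271). LPS+IFNb against IFNb was 1.47 (limma adjusted p = 0.0571) and the interaction was -2.99 ± 0.71 (adjusted p = 0.0548). Without Saline replicate 1 or Saline replicate 2 the first stayed at 1.47, and the interaction was -2.11 and -3.87. Leaving out either one removed the spread between the 2 Saline libraries, so the lower p-values of those fits add no support. No coding gene overlaps it, the nearest start, of Ldb2, is 166520 bp away, and Ldb2 was listed at 0 in all libraries.

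Gm9869, an antisense gene of 3 exons, all within intronic sequence of Uaca at chr9:60821552-60838200, reached 1 TPM in the 4 libraries that had IFNb and in none of the other 4. It was listed at 0.168 and 0 TPM in LPS, 12.3 and 12.3 TPM in IFNb, 3.69 and 2.57 TPM in LPS+IFNb, and at 0 in both Saline libraries. The IFNb libraries were highest, LPS+IFNb lay between, and no LPS or Saline library reached either. LPS+IFNb exceeded Saline, a difference of means that leaves out the IFNb levels by which Gm9869 was chosen, with no fold given against 0. Its limma adjusted p of 0.000153 does not leave them out. The spread behind that p comes from all 8 libraries, among them IFNb at 12.3 and 12.3 TPM and both Saline libraries at 0. The difference of LPS+IFNb from IFNb was -1.70 ± 0.19. The interaction, the change of LPS+IFNb minus the sum of the changes of LPS and IFNb, was -1.81 ± 0.27 with 1 TPM added and -2.67 with 0.1 TPM added. Both of these use the IFNb libraries and are descriptions.

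**Figure D4:**
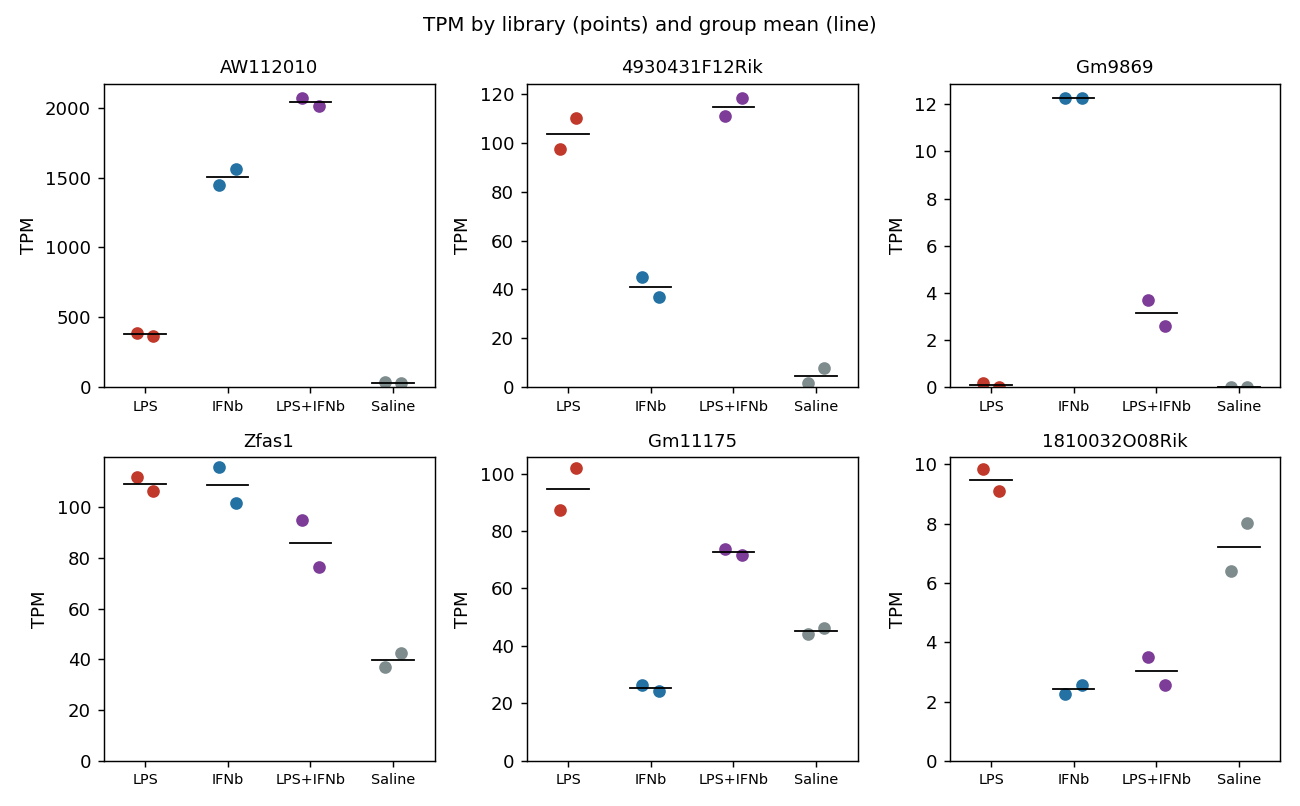
TPM of 6 members by library (points) with the group mean (line), in LPS, IFNb, LPS+IFNb and Saline. AW112010 is at 2071 and 2012 TPM in LPS+IFNb, 4930431F12Rik is highest where LPS was given, Gm9869 is at 12.3 TPM in IFNb, and Gm11175 is lowest in IFNb.

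Uaca, which encodes a protein with ankyrin repeats and coiled coils, was likewise highest in IFNb and next in LPS+IFNb. Uaca was at 0.247 and 0.350 TPM in LPS, 16.8 and 15.4 TPM in IFNb, 4.84 and 4.83 TPM in LPS+IFNb, and 0.314 and 0.506 TPM in Saline. Its interaction was -1.43 ± 0.21 (limma adjusted p = 0.0113). Over the 8 libraries the log2 levels of Gm9869 and Uaca had a Pearson r of 0.994, the third highest of 13008 genes after Rnf34 (0.995) and Lrch1 (0.994). For AW112010 the 3 most alike genes were Tor1aip2 (0.999), Lacc1 (0.997) and Gm43302 (0.997). For 4930431F12Rik they were Gm17228 (0.989), N4bp1 (0.988) and Rhbdf2 (0.988). These values are descriptive, over 8 libraries that are 4 pairs of replicates and share their sum to the same total.

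Of the 21 members 3 host snoRNAs, and they did not move alike. Zfas1, whose introns hold Snord12 and 2 further snoRNA genes, was at 112 and 106 TPM in LPS, 116 and 102 TPM in IFNb, 95.1 and 76.4 TPM in LPS+IFNb, and 37.2 and 42.5 TPM in Saline. All 6 stimulated libraries lay above Saline, and the LPS, IFNb and LPS+IFNb libraries lay close to each other, with LPS+IFNb lowest. The change was 1.43 ± 0.13 in LPS (limma adjusted p = 0.000321), 1.43 ± 0.13 in IFNb (adjusted p = 0.000345) and 1.08 ± 0.13 in LPS+IFNb (adjusted p = 0.000478). The separate changes sum to 2.86, and the interaction was -1.78 ± 0.19 (limma adjusted p = 0.00264). Znfx1, a helicase family sensor of viral RNA whose 5′ end overlaps that of Zfas1, was at 179 and 176 TPM in LPS, 514 and 516 TPM in IFNb, 328 and 362 TPM in LPS+IFNb, and 22.4 and 35.6 TPM in Saline. The IFNb libraries were thus highest for Znfx1, and the 3 stimulated groups did not overlap for it, while those of Zfas1 did overlap between LPS and IFNb. The interaction for Znfx1 was -3.19 ± 0.28 (limma adjusted p = 0.001).

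1810032O08Rik, which RefSeq names Snhg16 and which holds Snord1a, Snord1b and Snord1c, was lower in cells given IFNb. It was at 9.85 and 9.11 TPM in LPS, 2.24 and 2.57 TPM in IFNb, 3.49 and 2.55 TPM in LPS+IFNb, and 6.39 and 8.03 TPM in Saline. The IFNb libraries and LPS+IFNb libraries lay below the other 4. The change was -1.26 ± 0.18 in IFNb (limma adjusted p = 0.0017) and -1.03 ± 0.18 in LPS+IFNb (adjusted p = 0.00196, and 0.0719 with median-ratio scaling), and LPS+IFNb was below LPS by a change of -1.39 ± 0.18 (adjusted p = 0.00206). Cct6a, the coding host of Snora15, was at 80.9 and 86.7 TPM in LPS, 58.2 and 59.5 TPM in IFNb, 51.4 and 49.9 TPM in LPS+IFNb, and 86.3 and 75.4 TPM in Saline. Its falls of -0.45 ± 0.09 in IFNb and -0.66 ± 0.09 in LPS+IFNb (limma adjusted p = 0.0081 and 0.00087) became -0.061 and 0.051 with median-ratio scaling (adjusted p = 0.798 and 0.794). LPS+IFNb was below LPS for Cct6a by a change of -0.71 ± 0.09 (limma adjusted p = 0.00231, and 0.0594 with median-ratio scaling).

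Gm9776 and 6530409C15Rik, each beside or opposite a coding gene, were higher than Saline in all 3 treatments. Only stimulated libraries brought them to 5 TPM, so the rule favoured these differences and they are descriptions. Gm9776, which starts 37 bp from Ap3b1, a subunit of the AP-3 vesicle adaptor, was at 5.72 and 4.36 TPM in LPS, 6.64 and 6.43 TPM in IFNb, 4.94 and 5.81 TPM in LPS+IFNb, and 1.81 and 2.81 TPM in Saline. All stimulated libraries were above Saline, with a change of 0.87 ± 0.20 in LPS, 1.20 ± 0.20 in IFNb and 0.96 ± 0.20 in LPS+IFNb. The change in LPS was 0.71 without LPS replicate 1. Ap3b1 itself was at 49.9 and 43.7 TPM in LPS, 64.8 and 67.9 TPM in IFNb, 53.5 and 60.3 TPM in LPS+IFNb, and 47.2 and 47.5 TPM in Saline. 6530409C15Rik, antisense to the zinc finger gene Zfp800, was at 4.63 and 5.31 TPM in LPS, 4.90 and 5.52 TPM in IFNb, 5.83 and 10.5 TPM in LPS+IFNb, and 1.66 and 2.42 TPM in Saline. Of the bases of its main transcript, 18.9% lie in coding exons and 47.5% in coding introns. With strand use unknown, reads at those bases cannot be told apart from reads of Zfp800. Every stimulated library was above Saline, with changes of 0.98 ± 0.27 in LPS, 1.04 ± 0.27 in IFNb and 1.56 ± 0.27 in LPS+IFNb. The call in LPS was lost without Saline replicate 1, LPS replicate 1 or LPS replicate 2. That in IFNb was lost without Saline replicate 1, IFNb replicate 1 or IFNb replicate 2. Zfp800 was at 41.7 and 34.1 TPM in LPS, 35.6 and 36.8 TPM in IFNb, 60.2 and 65.7 TPM in LPS+IFNb, and 12.7 and 13.1 TPM in Saline.

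**Figure D5:**
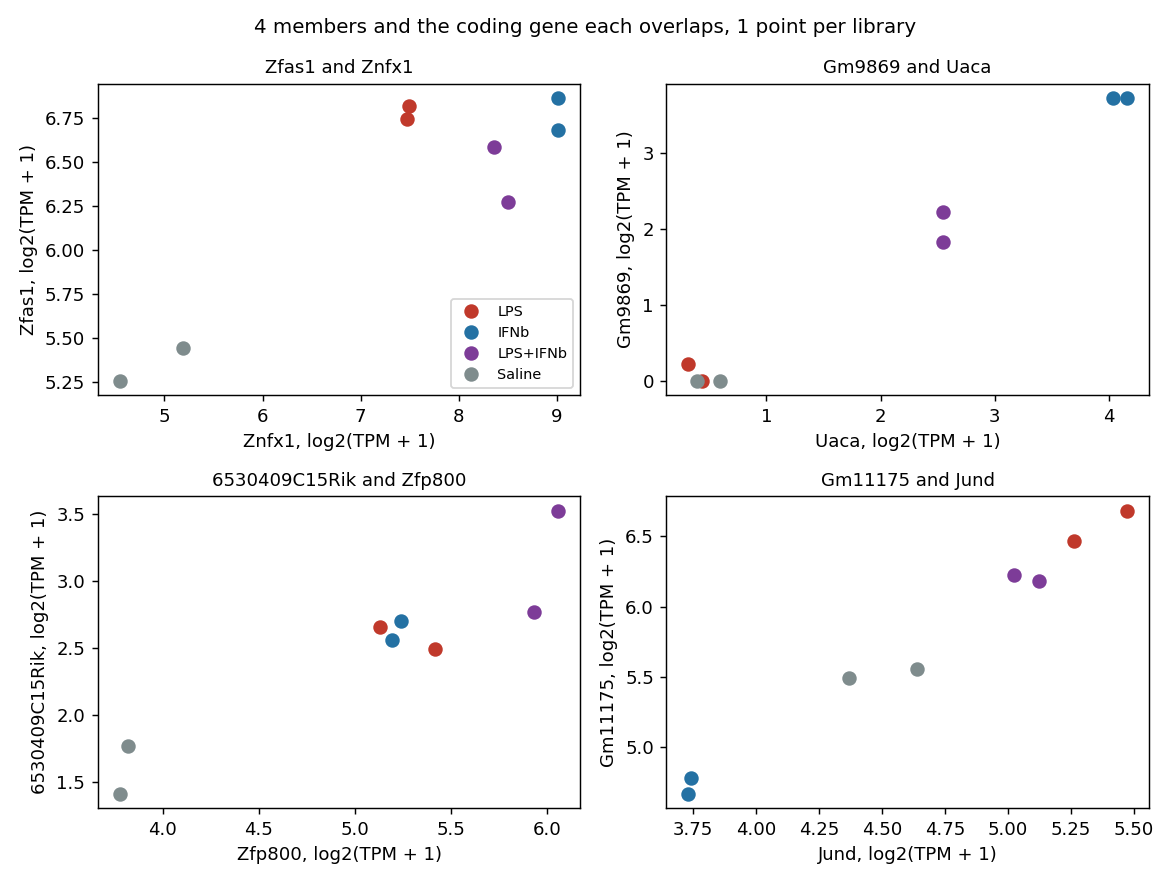
Level of 4 members (y axes) against the coding gene that each overlaps (x axes), both as log2(TPM + 1), with 1 point per library coloured by group. Both Saline libraries are lowest on both axes for Zfas1 and for 6530409C15Rik. For Gm11175 all words of 31 bases are also in Jund.

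C920021L13Rik, which starts 3 bp from Mrps21, was lower wherever LPS was given. It was at 1.91 and 1.04 TPM in LPS, 6.94 and 5.67 TPM in IFNb, 1.54 and 0.878 TPM in LPS+IFNb, and 4.29 and 5.77 TPM in Saline. The LPS and LPS+IFNb libraries lay below the other 4, with changes of -1.30 ± 0.26 in LPS and -1.45 ± 0.26 in LPS+IFNb (limma adjusted p = 0.00601 and 0.00229). It shared 26.0% of its words, most of them with BC028528. 4930481A15Rik, antisense to the transcription corepressor gene Drap1, was at 2.95 and 3.91 TPM in LPS, 4.43 and 2.41 TPM in IFNb, 2.88 and 3.45 TPM in LPS+IFNb, and 8.73 and 15.8 TPM in Saline. Both Saline libraries were above all the rest, with changes of -1.54 ± 0.33 in LPS, -1.57 ± 0.33 in IFNb and -1.62 ± 0.33 in LPS+IFNb. These are descriptions, since only the Saline libraries brought it to 5 TPM.

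Among members that share sequence with a coding gene, Gm11175 was at 87.3 and 102 TPM in LPS, 26.4 and 24.4 TPM in IFNb, 73.6 and 71.7 TPM in LPS+IFNb, and 44.0 and 46.1 TPM in Saline. The groups did not overlap, with LPS highest and IFNb lowest. Its changes were 1.05 ± 0.10 in LPS, -0.80 ± 0.10 in IFNb and 0.68 ± 0.10 in LPS+IFNb (limma adjusted p = 0.000377, 0.00117 and 0.00114). LPS+IFNb was above IFNb by 1.48 ± 0.10 (limma adjusted p = 0.000215). Below LPS its change was -0.37 ± 0.10 (adjusted p = 0.0321), which did not pass without LPS replicate 2, either IFNb library or either LPS+IFNb library (adjusted p = 0.0524 to 0.154) and was -0.12 with median-ratio scaling (adjusted p = 0.526). Jund, which holds all its words, was at 37.4 and 43.4 TPM in LPS, 12.4 and 12.3 TPM in IFNb, 31.6 and 33.8 TPM in LPS+IFNb, and 19.7 and 23.9 TPM in Saline. The order of the groups was the same for Jund and Gm11175.

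1700026F02Rik was at 11.5 and 3.66 TPM in LPS, 78.3 and 53.2 TPM in IFNb, 15.5 and 26.4 TPM in LPS+IFNb, and 51.4 and 78.4 TPM in Saline. LPS and LPS+IFNb lay below the other 4 libraries, with changes of -3.08 ± 0.50 in LPS and -1.60 ± 0.50 in LPS+IFNb (limma adjusted p = 0.0028 and 0.0262). The second did not pass without Saline replicate 2 or LPS+IFNb replicate 1 (adjusted p = 0.12 and 0.133), and was -0.90 with median-ratio scaling (adjusted p = 0.158). LPS+IFNb against IFNb, a change of -1.63 ± 0.50 (limma adjusted p = 0.0428), did not pass without any one of the IFNb or LPS+IFNb libraries (adjusted p = 0.0651 to 0.189). Its change in IFNb was 0.02 ± 0.50 (limma adjusted p = 0.974). Zfp709, which holds all its words, was at 3.10 and 3.21 TPM in LPS, 7.33 and 6.79 TPM in IFNb, 2.52 and 3.83 TPM in LPS+IFNb, and 13.5 and 10.6 TPM in Saline. It was lower in all 3 treatments, IFNb included, with changes of -1.65 ± 0.19 in LPS, -0.69 ± 0.19 in IFNb and -1.66 ± 0.19 in LPS+IFNb (limma adjusted p = 0.000758, 0.0239 and 0.000371). Whether the IFNb changes of these genes differ was not tested. Gm42936 was at 3.98 and 0 TPM in LPS, 12.9 and 7.85 TPM in IFNb, 3.61 and 2.80 TPM in LPS+IFNb, and 4.56 and 6.23 TPM in Saline. LPS was below IFNb by a change of -2.31 ± 0.69, or -1.16 without LPS replicate 2. The call was lost without any single library other than LPS replicate 1. Gm42936 needed IFNb to meet the rule, so this difference is a description. Gm10076 ranged from 3.82 to 22.2 TPM and its groups overlapped.

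The coding gene Ifi30 was at 346 and 320 TPM in LPS, 310 and 356 TPM in IFNb, 299 and 333 TPM in LPS+IFNb, and 531 and 491 TPM in Saline. Both Saline libraries were above all the rest, with changes of -0.61 ± 0.10 in LPS, -0.62 ± 0.10 in IFNb and -0.69 ± 0.10 in LPS+IFNb (limma adjusted p = 0.00319, 0.00348 and 0.00111). Under median-ratio scaling they were -0.15, -0.23 and 0.029 (adjusted p = 0.473, 0.307 and 0.888), so the falls are in the share of TPM and are not shown relative to the other genes. Zswim6 was at 8.77 and 8.12 TPM in LPS, 5.42 and 4.53 TPM in IFNb, 6.74 and 7.14 TPM in LPS+IFNb, and 8.59 and 11.6 TPM in Saline. It was lower in IFNb by a change of -0.88 ± 0.17 (limma adjusted p = 0.00553), while the change of -0.47 ± 0.17 in LPS+IFNb (adjusted p = 0.0413) did not pass without any single library other than Saline replicate 1 (adjusted p = 0.0542 to 0.178) and was 0.18 with median-ratio scaling (adjusted p = 0.339). Gm20939 was at 3.61 and 3.27 TPM in LPS, 6.25 and 8.15 TPM in IFNb, 3.88 and 3.51 TPM in LPS+IFNb, and 5.84 and 3.498 TPM in Saline. LPS+IFNb was below IFNb by a change of -0.80 ± 0.23. The call was lost without any one of the 6 stimulated libraries or with median-ratio scaling. Gm20939 needed IFNb to meet the rule, so this difference is a description.

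Gm10076 and 4 other members did not pass in any comparison. Gm43190, the sense_intronic gene, ranged from 7.19 to 16.0 TPM, Gm10602 from 5.68 to 15.4 TPM, Prr33 from 2.12 to 8.52 TPM and 4632415L05Rik from 3.51 to 5.997 TPM. The highest value of Gm43190 and of Gm10602 was in Saline replicate 2, and the lowest of Gm43190 was in Saline replicate 1.

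LPS+IFNb was next set against each stimulus alone, and LPS against IFNb. LPS+IFNb raised 2 members and lowered 3 against LPS, beside 10.8% and 24.1% of all tested genes and 13% and 30.1% of those at 5 TPM. It raised 2 and lowered 4 against IFNb, beside 8.76% and 30.5% of all tested genes and 10.3% and 36.4% at 5 TPM. LPS was higher than IFNb for 4 members and lower for 6, beside 16.6% and 22.1% of all tested genes and 19.8% and 25.5% at 5 TPM. With median-ratio scaling these were 4 and 1 against LPS, 5 and 2 against IFNb, and 5 and 6 for LPS against IFNb. The members' shares higher in the first 2 comparisons, 9.52% and 9.52%, are near those of all genes. The 6 members lower in LPS than in IFNb included AW112010, with a change of -1.99 ± 0.13 (limma adjusted p = 7.47e-05). Gm9869, which had met the rule through IFNb and was near 0 in LPS, was another. C920021L13Rik, Gm20939 and Gm42936, also among the 6, had needed IFNb to meet the rule. Gm9869, C920021L13Rik and Gm20939 were among the 4 that LPS+IFNb lowered against IFNb. The 4 higher in LPS were Gm11175 (1.85 ± 0.10), 1810032O08Rik (1.62 ± 0.18), Zswim6 (0.66 ± 0.17) and Cct6a (0.50 ± 0.09). Zswim6 did not pass without LPS replicate 1, LPS replicate 2 or IFNb replicate 2 (adjusted p = 0.067 to 0.113). Gm20939 was lower in LPS than in IFNb by a change of -0.88 ± 0.23, a description, and its call was lost without any one of the same 3 libraries. The interaction was positive for 0 members and negative for 3 at a limma adjusted p under 0.05 (4 and 5 at an unadjusted p under 0.05), beside 3.51% and 4.45% of all tested genes and 4.34% and 5.73% at 5 TPM. The 3 were AW112010, Zfas1 and Gm9869, the last chosen through IFNb. Median-ratio scaling gave 5 negative ones.

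Of the lncRNAs listed by role, few were among the transcripts analysed here. Of 26 lncRNAs known from innate immune or macrophage studies 1 was among them, AW112010, and of 21 snoRNA hosts 2 were, Zfas1 and 1810032O08Rik. None of 19 abundant nuclear or growth-linked lncRNAs, 16 miRNA hosts, 9 imprinted and 3 ribosomal RNA-overlapping genes was among them, so Malat1 and Neat1 were not analysed here.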

How the data were processed

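Total RNA of 8 macrophage libraries was sequenced after Illumina TruSeq preparation, per the labels' protocols. The deposited values are TPM for 88198 mouse transcripts. Kallisto and the mm10 build are named per the submitters' processing notes, while the version, transcript set and strand setting were not given in the sources used here. TPM keeps no depth, so the depth of each library is unknown and counting error cannot be given. It also moves with every other gene in a library, and a value of 0 can be a failed estimate.

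Transcripts were matched to GENCODE M21 (86119 found, 2079 left out, at 1.01% to 1.95% of TPM per library) and summed per gene. The test took the 13009 genes that had 1 TPM or more in 2 or more libraries. Values were log2(TPM + 1), a scale that understates changes of low genes. limma 3.58.1 under R 4.3.3 fitted 1 mean per group to all 8 libraries with an intensity trend, giving 6 differences and the interaction, with two-sided p adjusted over all genes by the Benjamini-Hochberg method. Groups of 2 allow no permutation p under 0.05 and no outlier test. Words of 31 bases were compared between listed transcripts.

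Genes were named where they were among the 6 largest called changes each way of a comparison without overlap (4 for the interaction), the 8 highest by mean TPM, on a list, next to or overlapping such a member, or among the 3 most alike of the 3 most variable members. The members and lists were chosen with earlier results of these data known. Groups and replicate numbers came from the labels. Alternatives were median-ratio scaling, removal of mitochondrial genes, a pseudocount of 0.1, no filter, a 5 TPM filter, only the groups compared, a 2-fold minimum, members by mean TPM, the replicate number as a block, and each library left out. Added after seeing the data were counts without 8 members that RefSeq types as coding or that share over 50% of words. Python 3.11.15 with pandas 2.3.3 handled the tables.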

Additional observations from a re-analysis of the deposited data

Results flagged for a closer look

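The combined treatment differed from the sum of the separate changes for AW112010 and Zfas1, by limma's test of the difference itself. LPS+IFNb cells were taken later than the LPS, IFNb and Saline cells, so time after IFNb and the addition of LPS cannot be told apart. AW112010 had an interaction of -3.10 on the log2(TPM + 1) scale (limma adjusted p = 0.000215). Zfas1 had an interaction of -1.78 (limma adjusted p = 0.00264). Gm9869 had an interaction of -1.81, also called, but it met the 5 TPM rule through IFNb alone, so this is a description and no independent test. Its size depends on the 1 TPM added, since both Saline libraries are listed at 0 and LPS at 0.168 and 0 TPM. With 0.1 TPM added it was -2.67 and was not called, nor was it called without IFNb replicate 1 or without IFNb replicate 2. No cause was tested.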

How the results depend on the processing

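Of 60 called changes of single members, 40 stayed called under every alternative other than the 2-fold minimum, 20 were lost under at least 1, and 26 of the 87 uncalled ones were called under at least 1. Rescaling without mitochondrial genes changed no call. Median-ratio scaling gave 2 members lower in LPS+IFNb against Saline, 4 higher and 1 lower against LPS, 5 higher and 2 lower against IFNb, and 5 negative interactions. It turned the change of LPS+IFNb against Saline to 0.051 for Cct6a, 0.029 for Ifi30 and 0.18 for Zswim6. Without the filter LPS+IFNb against IFNb gave 1 higher and 2 lower, and with only the groups compared 4 higher. A 2-fold minimum left 2 lower in IFNb and 4 lower in LPS+IFNb against Saline, 1 lower in LPS+IFNb against LPS, 1 higher in LPS+IFNb against IFNb and 2 higher in LPS against IFNb. Members chosen by mean gave 1 higher in LPS+IFNb against LPS, 1 lower in LPS+IFNb against IFNb and 3 lower in LPS against IFNb. Without the 8 coding or sequence-sharing members, 2 were lower in LPS, 2 in IFNb and 3 in LPS+IFNb against Saline, 1 was lower in LPS+IFNb against LPS, 1 higher and 2 lower in LPS+IFNb against IFNb, and 1 higher and 3 lower in LPS against IFNb. Leaving out each library gave 1 to 6 higher and 2 to 4 lower in LPS+IFNb against IFNb, 2 to 4 higher in LPS+IFNb against LPS, and 0 to 1 positive and 2 to 5 negative interactions; the lone library left in a group is assumed to vary like the other groups. Without Saline replicate 1, Gm43190 had a change of -0.42 in IFNb and -0.39 in LPS+IFNb against Saline, and without Saline replicate 2 the changes were 0.63 and 0.66. Apart from the alternatives that count fewer members, the cause was not tested.

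The labels do not say whether replicate numbers pair the libraries. Deviations of replicate 1 from the group mean correlated at -0.156 to 0.141 between groups, which cannot tell whether libraries shared an animal or a day. With the number as a replicate block, 1 member was higher in LPS+IFNb against IFNb, and 4 calls were not made: AW112010 and 1700026F02Rik in that comparison (adjusted p = 0.0517 and 0.0636), Gm11175 in LPS+IFNb against LPS (0.0517) and Zswim6 in LPS+IFNb against Saline (0.0622). TPM gives no depth, so what depth limits is unknown, and low members are the least precise.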

Other observations

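A further 21 genes of the same types passed the test filter of 1 TPM in 2 libraries without reaching the level of 5 TPM in 2. None was called higher in any of the 7 comparisons by limma (1 was higher at an unadjusted p under 0.05 in LPS against Saline, 1 in the LPS+IFNb contrast with Saline and 1 for the interaction). Higher calls against Saline covered 12.8% of all tested genes in LPS, 13% in IFNb and 15.2% in LPS+IFNb. Over the 7 comparisons that share ran from 3.51% to 16.6%. Whether the lack of higher calls sets the 21 apart was not tested. Against Saline 7 of the 21 were lower in LPS, 9 in IFNb and 8 in LPS+IFNb, beside 41.3%, 38.6% and 54.1% of all tested genes. These counts of lower genes do not set the 21 apart. The lincRNA-type gene 4632404H12Rik was at 1.04 and 1.29 TPM in LPS, 1.37 and 1.40 TPM in IFNb, 0.325 and 0.593 TPM in LPS+IFNb, and 2.59 and 3.03 TPM in Saline. It was chosen after its values were seen. The bidirectional_promoter_lncRNA gene 0610009L18Rik, just outside the 5 TPM threshold, was at 3.13 and 2.99 TPM in LPS, 2.16 and 2.42 TPM in IFNb, 1.82 and 0.948 TPM in LPS+IFNb, and 5.09 and 4.70 TPM in Saline.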
